A study of Mus musculus with 113 samples.

Results

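*Pou5f1*, *Sall4*, *Utf1*, *Dppa5a*, *Dppa4*, *Dppa2*, *Dppa3* and *Sall1* were followed through neural differentiation of mouse embryonic stem cells (mESCs). They were chosen by symbol as core pluripotency genes thought to outlast the naive state, and all 8 were found in each of the 4 expression tables, which together list 23739 genes. Of the 113 samples, 22 were R1 mESC populations differentiated by SFEB, 14 in a first series from 0 to 142 h and 8 in a parallel series from 0 to 216 h. In SFEB, aggregates resembling embryoid bodies float in medium without serum until they are dissociated and replated on coated dishes on day 6. Another 64 were single R1 cells, picked by hand from SFEB culture, 8 at each of 8 times. A further 15 were R1 populations in adherent monoculture in N2B27 medium from 0 to 216 h, also replated on day 6. Whether samples of 144 h were taken before or after replating is not stated for either culture. The last 12 were E14 mESCs, wild type (WT) or with a CRISPR deletion in *Fyn* (KO, 1 clone), at days 0 and 4 of neural induction with 3 replicates each. The labels do not say which of the culture methods the E14 cells went through. R1 cells had been passaged once without feeders before differentiation.

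A mESC in the naive state resembles the cells of the early embryo before implantation. On differentiation it first loses the naive factors (*Klf4*, *Nanog*, *Esrrb*), passes through an epiblast-like state that still holds *Pou5f1*, and only then turns to neuroectoderm. *Pou5f1* encodes Oct4, the POU-domain factor on which pluripotency depends. *Sall4* and *Sall1* encode zinc finger repressors of the Spalt family. *Sall4* works beside Oct4, and *Sall1* is also known from neural progenitors and the developing kidney. *Utf1* encodes a chromatin protein of pluripotent cells and is a target of Oct4 and Sox2. The Dppa (developmental pluripotency associated) genes are mostly silent in somatic tissue. *Dppa2* and *Dppa4* encode SAP-domain partners that bind DNA together. *Dppa3* (Stella) protects DNA methylation in the egg and early embryo and marks germ cells, and *Dppa5a* encodes an RNA-binding KH-domain protein.

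On the NCBIM37 (mm9) assembly, the annotation places *Dppa4* (chr16:48283848-48294405) and *Dppa2* (chr16:48310590-48319836) next to each other on the plus strand, 16184 bases apart. The other 6 lie on separate chromosomes, among them *Pou5f1* at chr17:35642982-35647721 and *Utf1* at chr7:147129688-147131011, both on the plus strand, and *Sall1* at chr8:91551147-91568061 and *Sall4* at chr2:168573832-168593443, both on the minus strand. RefSeq promoter sequences (GRCm38.p6) were at hand for 3 of the 8. The 250 bases before the annotated start of each are shown because *Pou5f1* and *Utf1* had nearly the same course and *Sall1* another. They read from 5′ to 3′ on the gene's own strand, with every CpG in capitals; for *Pou5f1* and *Sall1*, whose entries list 2 and 3 starts, the most upstream was taken.
Pou5f1: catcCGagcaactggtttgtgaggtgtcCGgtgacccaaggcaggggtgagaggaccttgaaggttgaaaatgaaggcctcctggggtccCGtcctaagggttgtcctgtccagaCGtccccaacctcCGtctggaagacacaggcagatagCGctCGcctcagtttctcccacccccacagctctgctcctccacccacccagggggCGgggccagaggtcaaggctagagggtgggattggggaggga
Utf1: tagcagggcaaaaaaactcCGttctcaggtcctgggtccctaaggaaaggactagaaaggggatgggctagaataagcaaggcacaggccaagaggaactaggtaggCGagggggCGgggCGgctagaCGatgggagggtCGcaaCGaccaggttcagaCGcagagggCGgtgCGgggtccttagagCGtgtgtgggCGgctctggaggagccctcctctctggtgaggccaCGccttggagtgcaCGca
Sall1: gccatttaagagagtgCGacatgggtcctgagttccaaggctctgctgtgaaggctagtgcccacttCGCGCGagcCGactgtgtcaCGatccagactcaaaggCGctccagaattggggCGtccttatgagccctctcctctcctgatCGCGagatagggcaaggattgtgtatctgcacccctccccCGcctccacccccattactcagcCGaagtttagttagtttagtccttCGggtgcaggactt
These stretches lie at chr17:35505782-35506031, chr7:139943606-139943855 and chr8:89044163-89044412 (minus strand). They hold 8, 14 and 13 CpGs, against a median of 6 over the 32851 promoter entries of the table. The GC box (GGGCGG, which contains a CpG, either strand) is in the *Pou5f1* and *Utf1* stretches and not in that of *Sall1*, and is in 32.7% of all entries. The octamer ATGCAAAT, the classic POU-factor motif, is in none of the 3 on either strand and in 1.60% of all entries.

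Levels in the populations are in FPKM (fragments per kilobase of transcript, scaled to the mapped total of each library), which allows for transcript length. For SFEB the authors had corrected the FPKM for batches with ComBat, which can shift the level and zero of a gene, so the ranking of SFEB levels and the shares of a starting level hold on that corrected scale. In the first series the starting level, the mean of the 5 samples up to 24 h, was highest for *Dppa5a* at 1070 FPKM, followed by *Pou5f1* at 480.1 and *Utf1* at 366.0 FPKM. *Dppa4* (76.7 FPKM), *Sall4* (57.1), *Dppa2* (50.01) and *Sall1* (43.3) followed within a narrow span, and *Dppa3* was lowest at 29.1 FPKM. The adherent course began in nearly the same order, with *Dppa5a* at 721 and *Pou5f1* at 614 FPKM, and *Dppa3* again lowest at 38.1 FPKM. Near-identical copies of *Pou5f1*, *Dppa5a* and *Dppa3* exist in the mouse genome, so that reads of these 3 may have been shared with copies and their levels are uncertain.

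**Figure D1:**
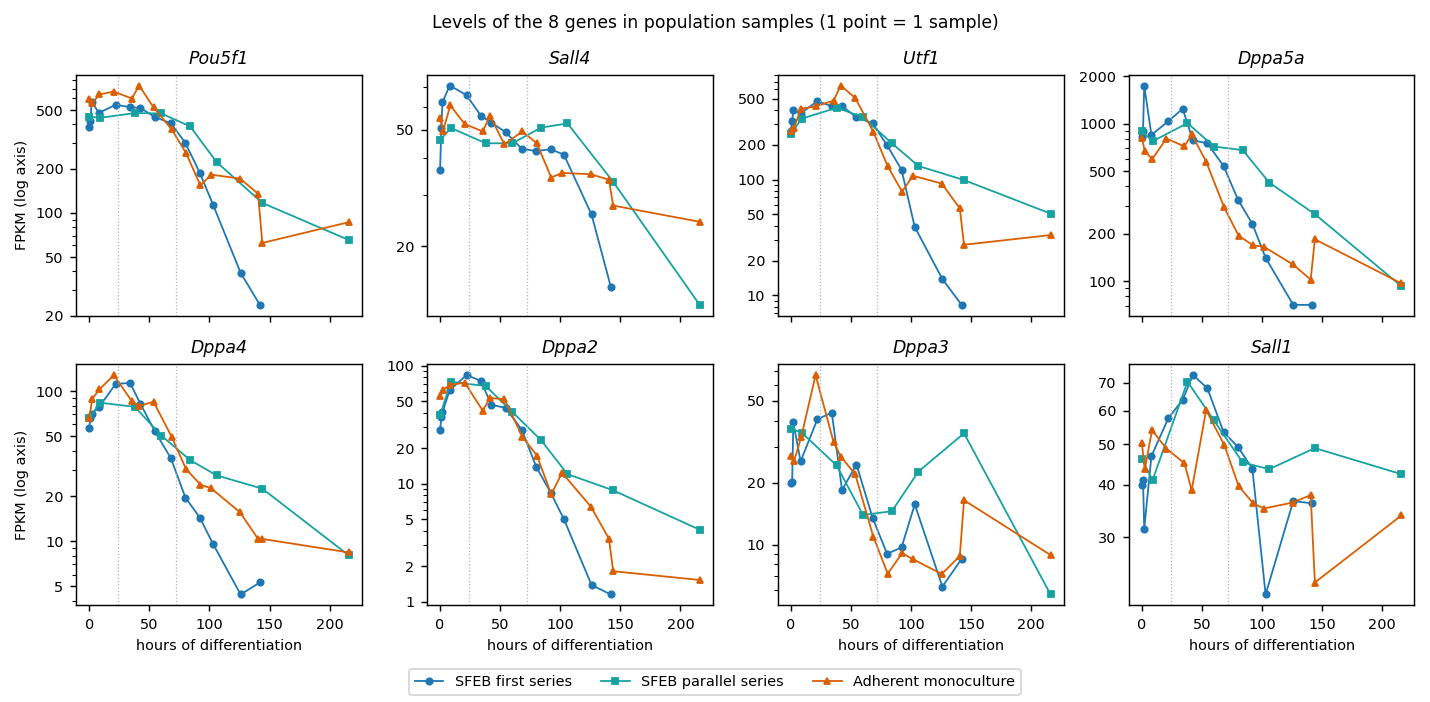
FPKM (log axis) of each gene against hours of differentiation in the first SFEB series (circles), the parallel SFEB series (squares) and adherent monoculture (triangles), 1 point per sample. *Pou5f1* was still at 406 FPKM at 68 h of the first series and then fell to 23.7 FPKM at 142 h, whereas *Sall1* ended at 36.1 FPKM after a peak of 73.0 FPKM.

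The question put to the population courses was how long each gene held its starting level. *Pou5f1* did so for more than 2 days. Its 7 SFEB samples of the first 24 h held 385 to 571 FPKM (median 451), the 6 of 24 to 72 h 406 to 523 (median 476) and the 9 after 72 h 23.7 to 387 (median 117). The first windows therefore overlapped almost entirely, and all 9 late samples lay below the lowest of the middle window. *Utf1* behaved alike, with medians of 336, 381 and 99.0 FPKM in the 3 windows, a peak of 474 FPKM at 22 h and 8.29 FPKM at 142 h. *Dppa5a* went from a median of 895 FPKM through 767 to 231 FPKM.

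*Dppa4* and *Dppa2* first went up and then down. *Dppa4* was at 57.1 FPKM at 0 h of the first series, reached 113 FPKM at 34 h and was at 4.42 FPKM at 126 h. *Dppa2* was at 28.4 FPKM at 0 h, reached 83.0 FPKM at 22 h and ended at 1.15 FPKM at 142 h. This was the lowest level of any of the 8 genes in the R1 populations. In adherent culture the peaks of both fell on the 20.5 h sample, at 128 and 71.7 FPKM.

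*Sall4*, *Dppa3* and *Sall1* departed from this shape. *Sall4* was still at 41.1 FPKM at 103 h of the first series and at 52.5 FPKM at 106 h of the parallel series, the highest value of that series, and left its earlier range only from 126 h (25.6 FPKM) and 144 h (33.2 FPKM), ending at 14.5 FPKM at 142 h and 12.6 FPKM at 216 h. *Dppa3* declined to 13.9 FPKM at 60 h of the parallel series and stood higher again at 106 h (22.6 FPKM) and 144 h (34.8 FPKM) before 5.72 FPKM at 216 h. The first series had 9.02 FPKM of *Dppa3* at 80 h, 15.7 at 103 h and 6.24 at 126 h, and the adherent course 7.19 at 125.5 h and 16.4 at 144 h. Over 12 genes of the naive state, the median share of the starting level in adherent culture was 7.04% at 140.5 h and 11.4% at 144 h. In the parallel series that share was 25.7% at 84 h and 25.5% at 144 h. *Sall1* rose from 39.9 FPKM at 0 h to 73.0 FPKM at 42.5 h and after 72 h kept to 21.9 to 49.2 FPKM over both series, against 31.4 to 57.6 FPKM in the first 24 h.

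For each course, the time was read after which a gene, interpolated between samples, stayed below 50% of its starting level. These are descriptions of single courses with 1 sample per time and carry no test. *Pou5f1* passed 50% for good at 86.3 h in the first series, 106 h in the parallel series and 75.1 h in adherent culture. For *Utf1* the times were 82.3, 102 and 76.6 h. *Dppa4* (66.0, 79.9 and 69.5 h) and *Dppa2* (70.9, 77.9 and 64.5 h) came earlier in all 3 courses than *Pou5f1*. *Dppa5a* passed at 68.3, 107 and 65.0 h. *Sall4* was late throughout, at 122, 175 and 152 h. *Dppa3* had no fixed place, with 106, 186 and 57.5 h, the last of which became 172 h when the 0 h sample alone set the start. *Sall1* did not stay below 50% in any course, though it was at 47.6% at 144 h of adherent culture, and ended at 83.3%, 97.4% and 68.8% of its start.

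The median over the 7 genes that reached 50% was 82.3 h in the first series, 106 h in the parallel series and 69.5 h in adherent culture. For 12 measured genes of the naive state the median was 32.8 h (11 reached 50%), 30.1 h (12 of 12) and 38.2 h (12 of 12). The 2 sets overlapped. In the naive list *Gbx2* came last, at 181 h in the parallel series and 144 h in adherent culture, and stood at 60.1% of its start at the end of the first series. *Fgf4* passed 50% at 71.4, 86.1 and 66.6 h, and *Nanog* at 91.9 and 121 h in SFEB but at 37.2 h in adherent culture. A list of 12 other pluripotency genes had medians of 88.0 h (8 reached 50%), 108 h (10 of 12) and 103 h (10 of 12), within the same range as the 8 genes, and there *Sox2* did not stay below 50% in any course, with a lowest level of 58.7 FPKM at 103 h of the first series from a start of 119 FPKM.

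**Figure D2:**
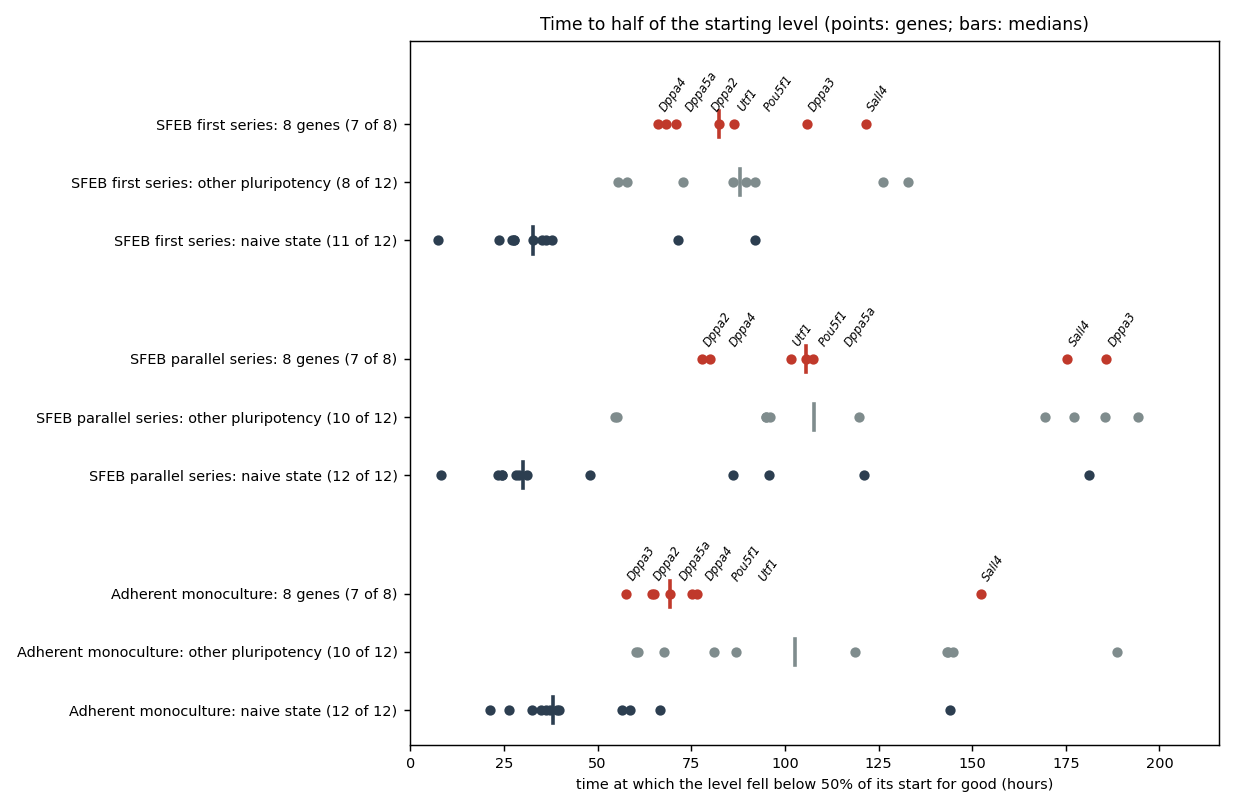
Hours at which each gene passed below 50% of its starting level for good, by course and gene list, with medians as bars. The number reaching 50% stands beside each row; 7 of the 8 genes did so in each course, between 57.5 and 186 h.

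limma was then used across all genes on log2(FPKM + 1), with samples grouped into the first 24 h, 24 to 72 h and after 72 h and the series as a covariate in SFEB. Time points stand in for replicates here, so the error is the spread between times of a window, and fewer cells of a type cannot be told apart from less RNA per cell. Between the first 24 h and 24 to 72 h in SFEB, 19.6% of 13363 genes were called lower and 13.2% higher, 32.8% in all (adjusted p under 0.05 by Benjamini-Hochberg). With quantile normalization the shares were 15.5% and 18.4%. Of the 8 genes, 0 were lower and 1, *Sall1*, was higher, by 0.56 ± 0.15 on the log2 scale (SE, adjusted p = 0.00645). The other 7 had differences between -0.49 (*Dppa3*) and 0.13 (*Utf1*). *Pou5f1*, at 0.00 ± 0.45, showed how wide these errors were, and changes larger than 1 SE in either direction were not excluded. The median over the 8 was -0.09, against -0.03 over all genes. In the naive list 10 of 12 measured genes were lower with a median of -1.82, among them *Klf4* with a fall of 3.29. All 4 epiblast genes measured were higher, with *Pou3f1*, the POU factor of the epiblast and early neural plate, up by 2.92.

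In adherent culture the same windows gave 7.57% of 12879 genes lower and 4.69% higher, 12.3% in all (4.57% and 6.48% with quantile normalization). None of the 8 genes was called, with 1, *Dppa3*, at an unadjusted p under 0.05 (-0.70 ± 0.33, adjusted p = 0.19), against 3376 of the 12879 genes. *Sall1* was not higher in this system (-0.03 ± 0.15, adjusted p = 0.924). The naive list had 8 of 12 lower and the epiblast list 4 of 4 higher.

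The fibroblast genes moved with these early windows. All 10 measured genes of a fibroblast list fell in SFEB between the first 24 h and 24 to 72 h, and their summed level was 122 to 825 FPKM in the first window, 16.5 to 67.6 in the second and 18.7 to 115 in the third. In adherent culture the sums were 128 to 347, 64.8 to 106 and 50.1 to 69.1 FPKM. The part of such cells in the values of the 8 genes was not tested. Genes of the neural list, summed, held 66.4 to 118 FPKM in the first SFEB window and 109 to 1534 FPKM after 72 h, and mesoderm and endoderm genes 2.83 to 8.60 and 7.29 to 49.6 FPKM.

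After 72 h the picture turned. In SFEB, 7 of the 8 genes were lower than at 24 to 72 h, against 20.7% of all genes lower and 33% higher, 53.7% in all (26.5% and 24.5% with quantile normalization). *Dppa2* fell by 2.78 ± 0.41 (SE, adjusted p = 2.97e-05), *Utf1* by 2.61 ± 0.51, *Dppa4* by 2.25 ± 0.34, *Dppa5a* by 2.11 ± 0.39 and *Pou5f1* by 2.05 ± 0.43 (adjusted p = 0.000577). The falls of *Dppa3* (0.81 ± 0.31, adjusted p = 0.0353) and *Sall1* (0.68 ± 0.14, adjusted p = 0.000591) were smaller. *Sall4* missed the threshold at -0.58 ± 0.26 (adjusted p = 0.0604). The median over the 8 was -2.08 and over all genes 0.08. In the naive list, most of whose loss came before, 7 of 12 were lower with a median of -0.82, and all 9 neural genes were higher.

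The 2 series were also fitted apart. In the first series alone (14 samples) the same 7 genes were called, with *Utf1* down by 3.15 and *Pou5f1* by 2.37. In the parallel series alone (8 samples) 0 genes of any kind passed the adjusted threshold, with 3187 at an unadjusted p under 0.05, and the differences were smaller, at -1.802 ± 0.46 for *Utf1*, -1.57 ± 0.59 for *Pou5f1* and -2.25 ± 0.56 for *Dppa2* (adjusted p = 0.148, 0.169 and 0.148). *Dppa3* was at -0.17 ± 0.58 there. Whether the series differed was not tested. At the late times the parallel series held more *Pou5f1* and *Utf1*. At 8 h of the first series (479 FPKM of *Pou5f1* and 373 of *Utf1*) both were above 9 h of the parallel series (443 and 336 FPKM). At 0 h *Pou5f1* was lower in the first series (385 FPKM) than in the parallel series. *Pou5f1* was at 114 FPKM at 103 h of the first series and 221 FPKM at 106 h of the parallel series, and at 23.7 FPKM at 142 h against 117 FPKM at 144 h. *Utf1* at the later pair was at 8.29 against 99.0 FPKM. This gap was not particular to the 2 genes. At the later pair the naive genes summed to 48.7 against 239 FPKM and the germ cell genes to 9.19 against 33.2 FPKM. Neural genes went the other way, at 1269 against 658 FPKM.

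Adherent culture had all 8 genes lower after 72 h, against 17.5% of genes lower and 33.6% higher, 51.1% in all (24.9% and 22% with quantile normalization, which moved the median of all genes by -0.19 from 0.18). The sizes were close to those in SFEB, with *Utf1* down by 2.75 ± 0.38 (SE, adjusted p = 7.56e-05), *Dppa2* by 2.69 ± 0.45, *Dppa4* by 2.15 ± 0.31, and *Pou5f1* and *Dppa5a* both by 1.97 (SE 0.30 and 0.26). *Dppa3* fell by 1.14 ± 0.29, *Sall4* by 0.57 ± 0.13 and *Sall1* by 0.47 ± 0.14 (adjusted p = 0.00981). Here *Pou5f1* did not reach the low levels of the first SFEB series and was at 62.4 FPKM at 144 h and 86.4 FPKM at 216 h. The naive list was lower in 12 of 12, and a list of other pluripotency genes in 9 of 12. In the same list SFEB had 10 of 12 lower. The call on all 8 genes held without the samples of 144 and 216 h.

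**Figure D3:**
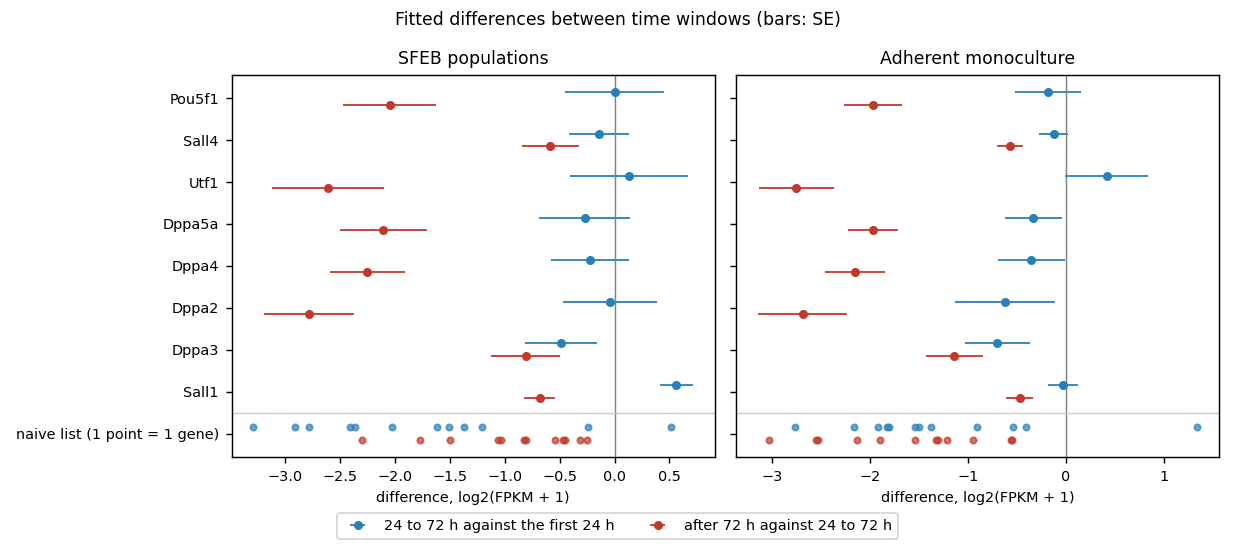
Differences of log2(FPKM + 1) with their SE for each gene, 24 to 72 h against the first 24 h (blue) and after 72 h against 24 to 72 h (red), in SFEB populations and adherent monoculture. The bottom row gives the naive genes, 1 point each; the blue points of the 8 genes lie between -0.70 and 0.56, while those of the naive list reach -3.29.

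Relatives of these genes took other courses. Of 4 Spalt genes, *Sall2* was higher at 24 to 72 h in SFEB by 2.47 and in adherent culture by 2.40, and again after 72 h in SFEB by 0.60 (adjusted p = 0.0279). *Sall3* was higher after 72 h in SFEB by 0.91, and *Sall4* was called higher in none of these comparisons. In adherent culture after 72 h, 0 of the 4 were called higher and 2, *Sall1* and *Sall4*, were lower. Of the POU genes, *Pou3f1* was higher and then lower, by 1.95 in SFEB and 1.32 in adherent culture, and the neural factors *Pou3f2*, *Pou3f3* and *Pou3f4* were higher only after 72 h among these 2 comparisons, by 2.74, 2.46 and 2.38 in SFEB. Of 9 measured germ cell genes, 7 were lower after 72 h in SFEB and 3 in adherent culture, with *Tex19.1* down by 2.101 and 2.29.

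The courses of the 8 genes were compared with those of 10263 other genes at 5 FPKM or more in both systems, by the lower of the Pearson r over the 22 SFEB and over the 15 adherent samples. The samples of a course share time, so these r describe likeness of shape and carry no p. Nearest to *Pou5f1* were *Rps4y2* (0.98), *Etv5* (0.98) and *Tuba4a* (0.97). *Utf1* was nearest to *Tcf15*, *Etv5* and *Zscan10* (0.97 each), and *Dppa2* to *Tcf15*, *Rarg* and *Rps4y2* (0.98, 0.98 and 0.97). *Dppa5a* lay nearest to *Ooep* (0.97), *Pmm1* and *Impa2*, *Dppa4* to *Aim2*, *Dnmt3l* and *Naa11* (0.97 each), and *Sall4* to *Tgif1* (0.95), *Taf5l* and *Exosc5* (0.93 each). *Dppa3* had *Sox15* (0.93), *Manba* (0.89) and *Mov10* (0.88) as its nearest, and *Sall1* found no gene above 0.83 (*Tmem131*, then *2610037D02Rik* at 0.80 and *Six4* at 0.80). Among the 8 themselves, r was 0.98 in both systems between *Pou5f1* and *Utf1* and between *Dppa4* and *Dppa2* (0.99 in adherent culture), whereas *Sall1* and *Sall4* gave 0.28 in SFEB and 0.77 in adherent culture.

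In single cells the values are log10(RPKM + 1) after quantile normalization between cells. A cell was counted as holding a gene at 10 RPKM or more. Whether the 8 cells of a time came from 1 culture or more is not stated, and they were counted as 1 sample. With 8 cells a count of 0 allows a share of up to 37.5%, and a count of 4 has an exact binomial (Clopper-Pearson) 95% interval of 15.7% to 84.3%, both for counting error only.

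*Pou5f1* was at 10 RPKM or more in 8 of 8 cells at 0, 9, 38, 60, 84 and 144 h, in 7 of 8 at 106 h and in 3 of 8 at 216 h. Its median was 2.75 at 0 h, 1.89 at 9 h, 2.66 at 38 h and 2.77 at 60 h, and then 2.43, 2.25, 1.66 and 0.72 up to 216 h. The low at 9 h was not seen in the parallel population, which held 451 FPKM of *Pou5f1* at 0 h and 443 FPKM at 9 h, and the cells of 9 h had a median of 6927 genes above 0 against 8972 at 0 h. The cells of 84 h ranged from 1.33 to 2.92, a wider spread (SD 0.63) than at 60 h (SD 0.21). *Utf1* was at this level in all cells to 84 h, and its cells also parted. At 84 h 2 cells, numbers 6 and 1, had *Utf1* at 1.04 and 1.41 and the other 6 had 2.57 to 3.25. The lowest *Pou5f1* of that time was in cells 1 (1.33) and 4 (1.44), so the cells were not all the same. At 144 h 2 cells had 3.46 and 3.94 and the other 6 had 1.24 to 1.87.

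*Dppa4* and *Dppa2* were counted in fewer cells from the start. *Dppa4* was at 10 RPKM in 5, 5, 6 and 7 of 8 cells from 0 to 60 h and in 3, 2, 1 and 0 from 84 to 216 h. *Dppa2* was in 3, 5, 6 and 4 cells and then in 1, 1, 0 and 0. *Dppa5a* and *Sall4* lasted longer, in 7 of 8 cells each at 144 h and in 2 and 1 of 8 at 216 h.

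*Dppa3* and *Sall1* were counted in fewer cells at some times and in more at later ones. *Dppa3* was at 10 RPKM in 5 of 8 cells at 0 h, in 1, 1, 2 and 1 from 9 to 84 h and in 4 of 8 at both 106 and 144 h, and in 1 of 8 at 216 h, cell number 16. At 9 h 5 more cells lay just below this level, at 0.95 to 1.04, and the median of 9 h (0.96) was close to that of 106 h (0.95), against 0.07 to 0.17 from 38 to 84 h. The parallel populations, taken at the same times, had 14.5 FPKM of *Dppa3* at 84 h, 22.6 at 106 h and 34.8 at 144 h. *Sall1* was in 6 of 8 cells at 0 h, 1 of 8 at 9 h, 6 of 8 at 38 h, 7 of 8 at 60 h, 4 of 8 at 84 h, 1 of 8 at 106 h, 0 of 8 at 144 h and 6 of 8 at 216 h, where its median was 1.66. The populations at the last 3 of these times held *Sall1* at 43.6, 48.9 and 42.4 FPKM, with no such low, and 41.1 FPKM at 9 h. Cells of 9, 106 and 144 h also had the fewest genes above 0, with medians of 6927, 7270 and 6145 against 7952 to 8972 at the other times, and the part of this in the counts was not tested.

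**Figure D4:**
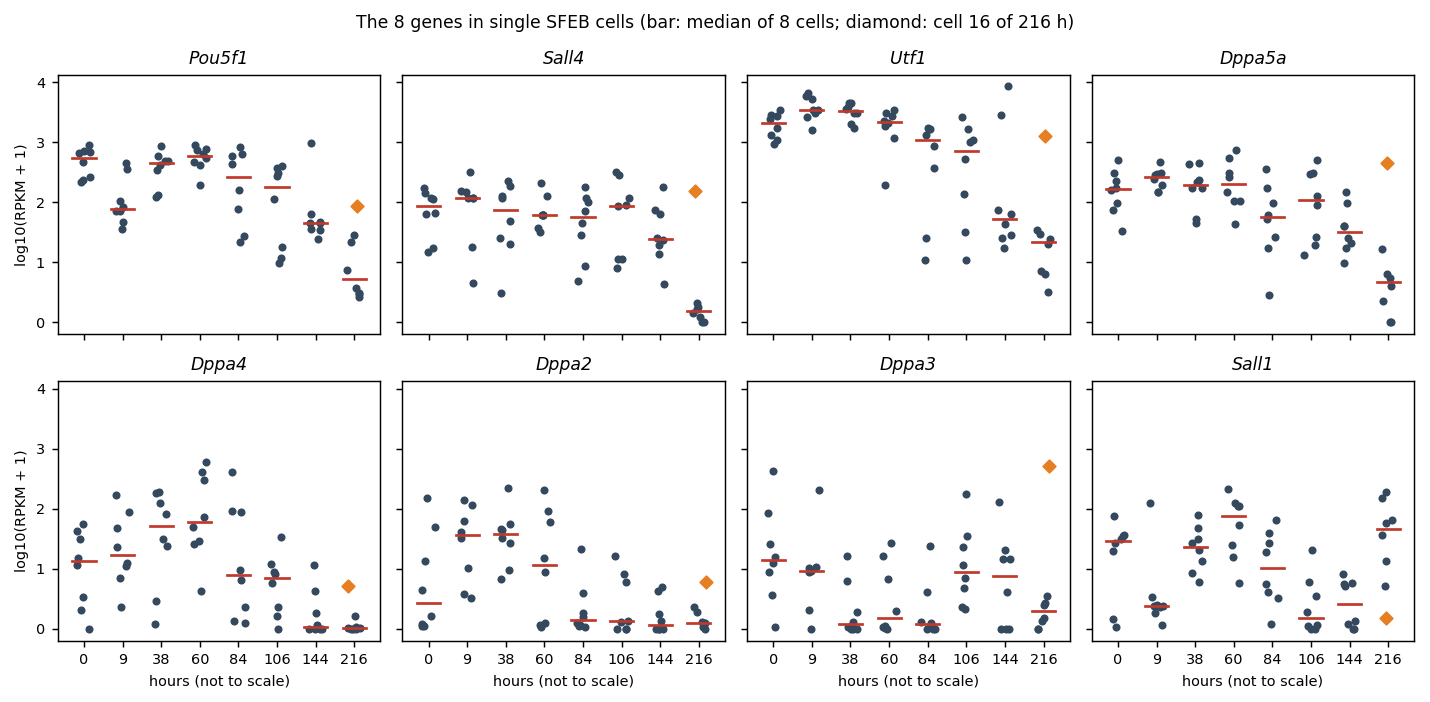
log10(RPKM + 1) of each gene in single SFEB cells by hour of collection, 8 cells per time, with medians as bars. The diamond is cell 16 of 216 h, at 3.10 for *Utf1* and 2.19 for *Sall4*, above the other 7 cells of its time, and at 0.18 for *Sall1*, below them.

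With the 8 time means as samples, limma called 0 of 11449 genes in either comparison (0% background), with 970 at an unadjusted p under 0.05 after 72 h and 480 before. Of the 8 genes, 6 were at an unadjusted p under 0.05 after 72 h and all 6 were lower. The differences were -1.22 ± 0.25 for *Utf1* and -1.13 ± 0.27 for *Dppa4* (SE, log10 scale, adjusted p = 0.268 for both), -0.997 for *Dppa2*, -0.92 for *Pou5f1*, -0.78 for *Dppa5a* and -0.70 for *Sall1*. *Sall4* was at -0.46 ± 0.29 and *Dppa3* at 0.28 ± 0.24. The call on *Utf1* depended on the genes tested. Among the 8546 genes above 0 in at least 50% of the cells, its adjusted p was 0.0347.

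The 32 cells collected after 72 h were laid out by how many of *Pou5f1*, *Sall4*, *Utf1*, *Dppa5a*, *Dppa4* and *Dppa2* they held at 10 RPKM, a choice of 6 genes made after the values were seen. The 5 cells with 5 or 6 of them, collected from 84 to 144 h, held 0 or 1 of 8 measured neural genes at that level. The 6 cells with 2 or fewer, all of 216 h, held 3 to 5, and the 21 cells between held 0 to 5. The neural count includes *Tubb3*, which was at 10 RPKM or more in 7 of 8 cells at 0 h. The median count was already 1 at 0 h. Genes listed above 0 numbered 6931 to 8548, 6771 to 8957 and 5648 to 10016 in these 3 sets. Across the 32 cells, pooled over 4 collection times at which the levels differ, r was 0.71 between *Dppa5a* and *Sall4*, 0.60 between *Pou5f1* and *Utf1* and -0.54 between *Dppa5a* and *Sall1*. In the 32 cells up to 72 h the same pairs gave 0.04, -0.21 and -0.36, and r within single times was not computed.

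E14 cells gave the only replicated comparison. The targeted gene was measured first. *Fyn* was at 3.21, 2.74 and 4.00 FPKM in the WT replicates and 0.598, 0.598 and 1.10 in the KO replicates at day 0, and at 9.44, 4.54 and 6.76 against 1.19, 1.13 and 1.58 FPKM at day 4. The groups did not overlap at either day, and the KO was lower by 1.29 ± 0.24 on the log2 scale at day 0 (adjusted p = 0.0601, not called) and by 1.74 ± 0.24 at day 4 (adjusted p = 0.0193). In 3 of the 12 libraries, WT replicates 1 and 2 and KO replicate 2 of day 4, the highest value of all was the short RNA gene *Snord22*. Fibroblast genes summed to 2.48 to 13.7 FPKM.

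At day 4 of WT cells, 2 of the 8 genes were lower than at day 0, against 10.3% of 12257 genes lower and 15.5% higher, 25.8% in all (12.5% and 12.9% with quantile normalization). *Pou5f1* had 637, 691 and 614 FPKM at day 0 and 269, 309 and 399 FPKM at day 4, with no overlap and a fall of 1.01 ± 0.14 (SE, adjusted p = 0.000723). *Dppa5a* had 1691, 2265 and 2388 FPKM at day 0 and 338, 1229 and 1089 FPKM at day 4, also with no overlap, and fell by 1.44 ± 0.39 (adjusted p = 0.0203). Without WT replicate 1 of day 4, the library at 338 FPKM, whose neural genes summed to 234 FPKM against 49.2 and 79.7 in the other WT replicates of day 4, the fall was 0.85 ± 0.22 (adjusted p = 0.0231). The call on *Dppa5a* was lost without the 3 libraries led by *Snord22* (-0.94, adjusted p = 0.104), a fit that leaves 1 WT library at day 4 and assumes that it varies like the other groups, in a fit of the 2 groups alone (adjusted p = 0.0575), and without WT replicate 2 or 3 of day 0 (adjusted p = 0.0668 and 0.0669). *Dppa2* went from 27.3, 30.7 and 38.8 FPKM to 7.60, 18.4 and 23.4 FPKM without overlap and missed the threshold (-1.05 ± 0.44, adjusted p = 0.104). It passed without KO replicate 3 of day 0, which shares the variance estimate (adjusted p = 0.0483).

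The others moved little or unevenly. *Sall4* held 57.9, 47.4 and 54.99 FPKM and then 49.4, 58.1 and 58.4 FPKM (0.05 ± 0.19), and *Dppa4* gave -0.11 ± 0.32. *Sall1* was at 0.61 ± 0.28 (adjusted p = 0.127). With the replicate number as a block over all 12 libraries, its adjusted p was 0.0484. Same-numbered WT libraries deviated together from their group means, but those of the KO did not (r 0.0239, 0.0899 and 0.00112). The block is therefore borne out for part of the libraries only. *Utf1* stood at 98.2, 23.6 and 26.0 FPKM at day 0 and at 71.6, 147 and 269 FPKM at day 4, higher in 2 of 3 same-numbered pairs (1.82 ± 1.02, adjusted p = 0.211). In the naive list, 12 of 13 genes were lower with a median of -2.04, including *Nanog* by 2.01, against -0.28 for the 8 genes and 0.08 for all genes. Of the epiblast genes 4 of 4 were higher (median 3.74), and of the neural genes tested 4 of 6 (median 2.41).

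In the KO, 1 of the 8 genes, *Pou5f1*, was lower at day 4 (7.56% of genes lower, 11.8% higher, 19.3% in all, and 9.59% and 10% with quantile normalization). It had 627, 634 and 660 FPKM at day 0 and 374, 325 and 313 FPKM at day 4, a fall of 0.93 ± 0.14 (SE, adjusted p = 0.00158). *Dppa5a* gave 2426, 3102 and 2030 FPKM and then 969, 1330 and 1355 FPKM, without overlap, at -1.04 ± 0.39 (adjusted p = 0.084). It passed the threshold without the 3 libraries led by *Snord22* (-1.11, adjusted p = 0.0193), with quantile normalization (-1.21, adjusted p = 0.0385), in a fit of the 2 groups alone (adjusted p = 0.0193) and without WT replicate 1 of day 4 (adjusted p = 0.00516). *Utf1* had 48.8, 6.47 and 280 FPKM at day 0 and 307, 387 and 402 FPKM at day 4, again without overlap, at 2.95 ± 1.02 (adjusted p = 0.0641). Without KO replicate 3 of day 0, the library at 280 FPKM, *Utf1* was higher by 4.24 (adjusted p = 0.00356). That library also had the highest sums of epiblast genes (64.9 FPKM against 15.6 and 15.7) and neural genes (52.5 FPKM against 15.4 and 13.7) of the KO at day 0, whose part was not tested. *Dppa3* was at 0.641, 10.0 and 0.876 FPKM at day 0 and 13.7, 26.3 and 20.8 FPKM at day 4, without overlap, at 2.67 ± 1.27 (adjusted p = 0.16). It passed in a fit of the 2 groups alone (adjusted p = 0.0464) and without WT replicate 1 of day 0 (adjusted p = 0.0295). A list of 10 germ cell genes, which does not hold *Dppa3*, was read beside it. In the KO these genes summed to 63.6 to 81.1 FPKM at day 0 and 141 to 170 FPKM at day 4. The WT sums were 76.1 to 121 and 33.2 to 99.0 FPKM. All these sums include *Sycp3*, whose own rise in the KO is given below. In the KO 2 of the 10 were higher, 0 lower and 8 not called, with a median of 0.22 against 0.05 over all genes. In WT 3 were lower and 0 higher. *Nanos3* was listed at 0 in 1 KO library of day 4, and no other gene of the list was at 0 in an E14 library. *Sycp3*, which encodes a protein of the synaptonemal complex, went in the KO from 9.82, 3.95 and 14.8 FPKM to 82.5, 71.7 and 106 FPKM (3.19 ± 0.52, adjusted p = 0.0026). *Mael*, a gene of the piRNA pathway, was higher by 1.90 ± 0.48 (adjusted p = 0.0181), a call lost in a fit of the 2 groups alone (adjusted p = 0.0535) and without KO replicate 2 of day 0 or KO replicate 1 or 3 of day 4 (adjusted p = 0.0736, 0.0649 and 0.0502). The part of these genes in the *Dppa3* values was not tested. The naive list had 9 of 13 genes lower.

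*Utf1* and *Dppa3* were the most uneven genes among replicates of day 0. The 3 libraries with *Dppa3* below 1 FPKM (WT replicate 1, KO replicates 1 and 3) had *Utf1* at 98.2, 48.8 and 280 FPKM. The 3 with *Dppa3* at 111, 51.7 and 10.0 FPKM (WT replicates 2 and 3, KO replicate 2) had *Utf1* at 23.6, 26.0 and 6.47 FPKM. *Pou5f1* in the same 6 libraries kept to 614 to 691 FPKM.

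The KO clone was compared with WT at both days and as a difference of the day 4 changes. With 1 clone, an effect of the *Fyn* deletion cannot be told apart from other differences between that clone and WT. At day 0, 0.131% of genes were lower in the KO and 0.0408% higher, 0.171% in all (0.106% and 0.0571% with quantile normalization). At day 4, 0.0653% were lower and 0.00816% higher, 0.0734% in all (0.122% and 0.0163% with quantile normalization). Of the 8 genes limma called 0 at either day, and at an unadjusted p under 0.05 it had 0 at day 0 and 1, *Dppa4*, at day 4, against 1785 and 1483 of the 12257 genes. For the difference of changes limma called 0 genes of any kind (0%), with 537 at an unadjusted p under 0.05 and none of the 8 among them. *Pou5f1* differed between KO and WT by -0.01 ± 0.14 at day 0 and by 0.07 ± 0.14 at day 4. The 2 genes whose groups did not overlap at day 4 were *Dppa4*, at 20.3, 41.8 and 42.0 FPKM in WT and 56.1, 72.5 and 51.5 FPKM in KO (0.83 ± 0.32, adjusted p = 0.319), and *Utf1* (1.35 ± 1.02, adjusted p = 0.648). Neural genes moved with this comparison, with 4 of 6 tested at an unadjusted p under 0.05 and a median of -1.08, as did mesoderm and endoderm genes, with 3 of 5 and a median of -0.89, against 1483 of 12257 genes and a median of -0.03 over all of them. None of either list passed the adjusted threshold. WT replicate 1 of day 4, lowest in *Dppa4*, had a neural sum of 234 FPKM against 49.2 and 79.7 in the other WT replicates and 34.4 to 50.7 in the KO. The part of this in the *Dppa4* and *Utf1* values was not tested. *Dppa3* at day 0 gave -2.76 ± 1.27 (adjusted p = 0.35), with WT replicate 1 on the side of the KO. Without that library, the only WT one that overlapped the KO, *Dppa3* was lower in the KO by 4.57 (adjusted p = 0.031). No other of the 12 fits that left out 1 library called any of the 8 genes in this comparison. The SEs of *Utf1* and *Dppa3* in the model of all 12 libraries were at least 1.02 and 1.27 in each E14 comparison, and differences as large as 2.95 and -2.76 missed the adjusted threshold.

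**Figure D5:**
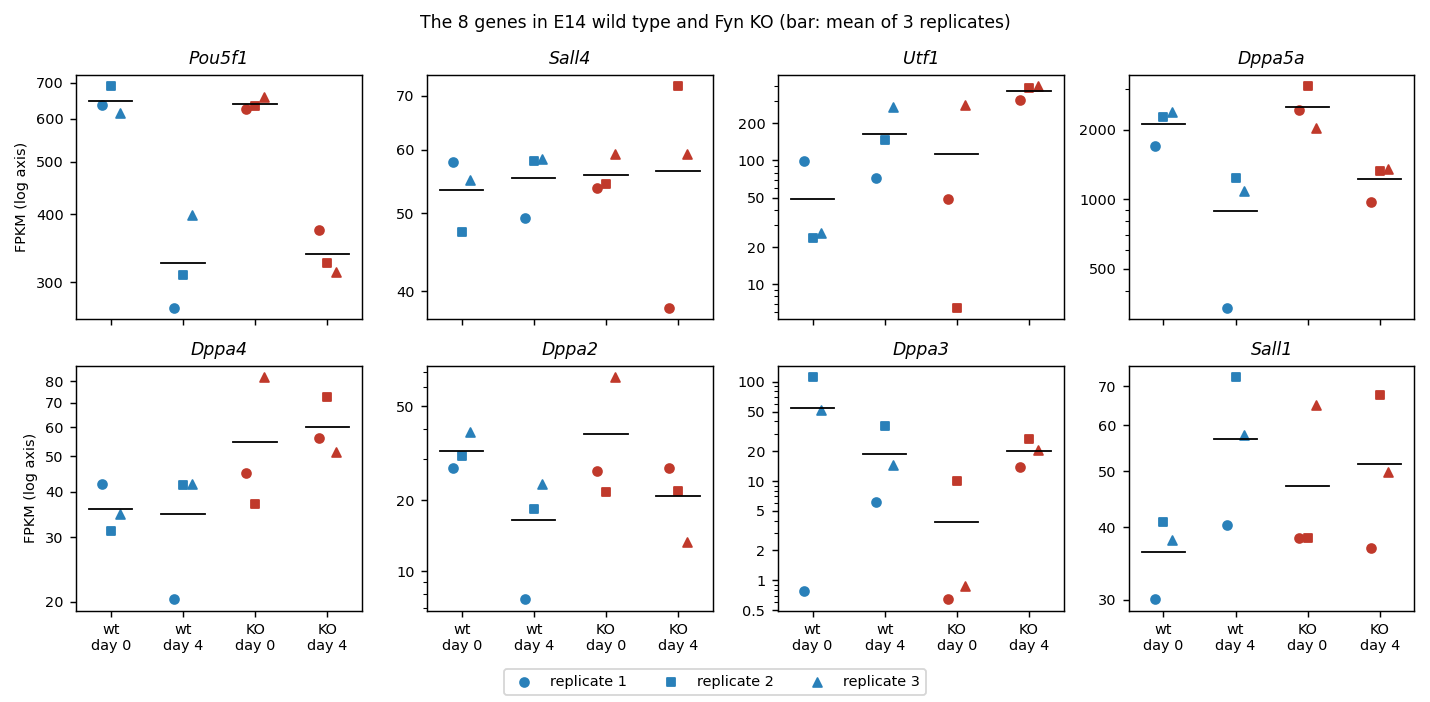
FPKM (log axis, 1 panel per gene with its own range) in E14 wild type (blue) and Fyn KO (red) at days 0 and 4, with replicates 1, 2 and 3 as circles, squares and triangles and the mean as a bar. *Pou5f1* separates day 0 (614 to 691 FPKM) from day 4 (269 to 399 FPKM) in both genotypes, while *Dppa3* at day 0 spans 0.641 to 111 FPKM.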

How the data were processed

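RNA-seq values as deposited were used. For R1 samples the study's methods name Tophat v1.4.1 with 1 hit per read, Cufflinks v1.3.0 and mm9, whereas the submitters' processing notes list TopHat2 2.0.8b and Cufflinks 2.1.1 with mm9 for R1 and mm10 for E14; which applied was not settled. SFEB population values are a score, FPKM that the authors corrected with ComBat, and 1256 of 297902 values below 0 were set to 0. The adherent and E14 tables were deposited as FPKM, and single cells as log10(RPKM + 1), quantile-normalized by the authors. No read counts were used, so depth is unknown and no depth-based interval is given. The labels name no separate cultures, so p-values measure the spread between these samples, which may be technical.

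limma 3.58.1 (R 4.3.3, trended variance) was run on log2(FPKM + 1), keeping genes that reached 1 FPKM in 3 or more samples, with Benjamini-Hochberg adjustment at 0.05. E14 groups shared 1 model. All 113 columns were matched to labels. Python 3.11.15 with pandas 2.3.3 did the rest. Genes named are the 8, the genes of the lists, the 3 genes most like each of the 8, and *Fyn*; *Snord22* was added after its values were seen. Members and lists were chosen with earlier results of these data known. Same-numbered WT libraries of days 0 and 4 deviated together (r 0.199, 0.220 and 0.224), as did WT and KO of day 4 (0.136, 0.258 and 0.240), but not the other pairs. The fits were tested on simulated data. Pseudocount 0.1, no filter, quantile normalization, other sample sets and leaving out replicates were tried.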

Additional observations from a re-analysis of the deposited data

Results flagged for a closer look

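Over the 64 sets of 8 cells (8 genes by 8 times), 12 had a cell whose distance from the others exceeded Dixon's 95% limit of 0.526 of the range, where chance gives about 1 in 20. Of these, 6 were the same cell, number 16 of 216 h, which stood above its time in *Sall4* (2.19, next 0.32), *Utf1* (3.10, next 1.54), *Dppa5a* (2.65, next 1.23), *Dppa4* (0.72, next 0.21), *Dppa2* (0.77, next 0.36) and *Dppa3* (2.71, next 0.54). Its *Pou5f1*, at 1.94, was the highest of its time and within the limit, and it held 0 of 8 neural genes at 10 RPKM where the other 7 cells held 3 to 5. Without it, limma still called 0 genes after 72 h.

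*Pou5f1* in cell 11 of 144 h was at 2.99 (next 1.799), and the same cell had the highest *Utf1* of its time. Cell 5 of 84 h stood out in *Dppa2* (1.33, next 0.59) and *Dppa3* (1.38, next 0.62) and was the only cell of that time to hold all 8 genes at 10 RPKM. *Utf1* in cell 9 of 60 h was low at 2.28, with the nearest at 3.07. At 9 h, *Dppa3* in cell 3 was at 2.32 (next 1.04) and *Sall1* in cell 4 at 2.101 (next 0.52). All values are log10(RPKM + 1). No test of a cause was run.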

How the results depend on the processing

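The 7 calls after 72 h in SFEB and the 8 in adherent culture were made under every alternative run except the parallel SFEB series alone (added after seeing the data), which called 0 of 8 in both SFEB comparisons. That subset has fewer samples. Calls on the 8 genes moved elsewhere only in few cases. In single cells after 72 h, 1 gene was called among genes above 0 in at least 50% of the cells, where fewer genes were tested. For WT E14, 1 gene was called with only the 2 groups compared and without the 3 libraries led by *Snord22* (added after seeing the data; 1 WT library of day 4 then remains, assumed to vary like the other groups), and 1 to 3 when single replicates were left out. For KO, where the numbers do not pair the samples, the replicate block and the fit of only the 2 groups both gave 3 genes (*Dppa5a* lower and *Dppa3* higher added), quantile normalization and the removal of the *Snord22* libraries 2, and leaving out replicates 1 to 2. For KO against WT at day 0, leaving out replicates gave 0 to 1, and at day 4 and for the difference of changes 0 in each. The replicate block changed no other call on the 8 genes beyond *Sall1* in WT. Of 33 member differences with an unadjusted p under 0.05, 0 changed sign, and of the other 55, 26 did so under at least 1 alternative, so their directions are not stable. At 25% of the starting level 17 of 24 courses of the 8 genes had passed, and 21 at 50% from either start.

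Over all genes, calls fell to 137 and 0 in the parallel series alone (4380 and 7178 with both), rose from 1579 to 2390 in the early adherent comparison without 144 and 216 h, and fell from 3166 to 673 for WT E14 without the *Snord22* libraries, where the WT day 4 arm is 1 library. With replicates left out they ran from 1831 to 3528 for WT, 1041 to 3063 for KO (2370 with all), 4 to 128 for KO against WT at day 0 (21) and 5 to 14 at day 4 (9). Time points are single libraries, ComBat may have altered differences between the series, and depth is unknown.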
